A study of Sus scrofa with 9 samples.

Results

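The immediate early genes FOS, FOSB, JUN, JUNB, EGR1, EGR2, EGR3, ATF3, NR4A1 and IER3 were followed in RNA-seq libraries from the abdominal aorta of Tibetan minipigs, a small pig breed. They were taken by gene name from a table of 21357 genes, and 9 of the 10 names had a row. JUN had none under its name and was read from the row whose identifier, ENSSSCG00000031912, is paired with JUN in the gene name table. JUNB was listed at 0 in all 9 libraries, so 8 genes found by name and JUN had values to compare, and all 9 passed the filter on low values in each comparison. The 9 libraries fell into 3 groups of 3. The NC pigs had a normal diet for 24 weeks, the H8 pigs a high-fat diet for 8 weeks under the label hypercholesterolemia, and the H24 pigs a high-fat diet for 24 weeks under the label atherosclerosis. The methods describe male pigs bought when a few months old, a high-fat diet with shortening oil, cholesterol and egg yolk powder, and 3 pigs picked per group, but only for NC and H24. No group had the normal diet for 8 weeks. In H8/NC the high-fat diet therefore cannot be told apart from weeks on study, age or time of collection. In H24/H8 time on the diet cannot be told apart from age or time of collection.

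Immediate early genes are transcribed within minutes of a stimulus such as growth factors, stretch, injury or heat, because the kinases and factors that switch them on are already in the cell. Their mRNAs are short-lived, and most encode transcription factors that set off a later wave of genes. FOS and JUN proteins pair to form the AP-1 factor, EGR proteins are zinc finger factors that bind GC-rich sites, ATF3 is a stress-induced factor related to the AP-1 proteins, and NR4A1 is an orphan nuclear receptor. IER3 is not a transcription factor itself but a short stress-induced regulator of cell survival, so the heading of transcription factors holds for the other 9. In arteries these genes are known to respond to mechanical injury and to disturbed flow, and tissue dissection is also known to induce them.

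Total counts ranged from 44094263 to 75787978 per library with a median of 65728854, and 3 counts, taken as the floor, stood for 0.0396 to 0.0680 CPM (counts scaled to a common library size). Smooth muscle markers, which define the wall of the aorta, summed to between 10463 and 14245 FPKM (fragments scaled to transcript length and library size) in the NC and H8 libraries. In H24 they summed to 8383, 12209 and 1789 FPKM. Macrophage markers summed to between 29.3 and 42.5 FPKM in NC, between 40.2 and 229 FPKM in H8, and to 380.0, 233 and 2451 FPKM in H24. H24 replicate 3 thus stood apart, with correlations of log2 CPM of 0.837 to 0.914 with the other libraries against 0.928 to 0.969 among those others. Results of members and of gene lists that rest on it are given with and without it. The cell marker lists were not fitted without it. In bulk tissue, fewer cells of a type and less RNA per cell cannot be told apart.

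FOS and FOSB, the FOS-side partners of AP-1, lie at chr7:98449508-98453576 and chr6:51838277-51842399, both on the plus strand of Sscrofa11.1. FOS stood at 123, 586 and 706 FPKM in NC replicates 1 to 3, at 1153, 945 and 161 FPKM in H8, and at 533, 420.3 and 108 FPKM in H24. Each group held 1 library several times below the other 2, and all 3 groups overlapped. FOSB stood at 25.8, 168 and 172 FPKM in NC, at 828, 833 and 88.3 FPKM in H8, and at 129.7, 129 and 32.5 FPKM in H24. Replicates 1 and 2 of H8 were above every other library, while H8 replicate 3 lay inside the NC range. In rank, FOS ran from the 24th to the 356th most abundant gene of a library and FOSB from the 37th to the 1575th.

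JUN, the main partner of FOS, lies at chr6:153685682-153687639 on the plus strand. Its levels were 375, 456 and 259 FPKM in NC, 1356, 578 and 879 FPKM in H8, and 349.6, 280.5 and 337 FPKM in H24. All 3 H8 libraries were above all 6 others, NC and H24 overlapped, and the H24 libraries lay within 1.25-fold of each other. JUN was thus the steadiest of the abundant members and never ranked below the 131st gene of a library.

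JUNB, a JUN relative known to be induced with FOS, has its row at chr2:66214594-66215637 on the minus strand and was listed at 0 in every library. The row lies wholly inside the listed spans of PRDX2, which encodes a peroxiredoxin (chr2:66207880-66216017), and HOOK2, which encodes an endosomal linker protein (chr2:66213823-66239669), both on the plus strand. PRDX2 stood at 20.02, 143 and 192 FPKM in NC, at 119, 199.6 and 53.6 FPKM in H8, and at 16.5, 19.4 and 18.7 FPKM in H24. Its lowest NC and H8 libraries, replicates 1 and 3, were also those with the lowest FOS and FOSB, and every H24 library was below every other. Within H24 this order was not shared, as PRDX2 was lowest in replicate 1, where FOS and FOSB were highest. PRDX2 had a log2 fold change of -2.73 in H24/NC (SE 0.74, adjusted p = 0.183, edgeR) and of -2.99 in H24/H8 (SE 0.55, adjusted p = 0.336). HOOK2 stayed between 0.662 and 1.90 FPKM with overlapping groups. Among named rows at 0 in every library, 337 of 1312 (25.69%) lay wholly inside another gene's span, against 1426 of 14926 named rows above 0 (9.554%). Whether reads of JUNB were assigned to PRDX2 was not tested, and no level of JUNB is given here. PRDX2 and HOOK2 were looked at after the JUNB values were seen.

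**Figure D1:**
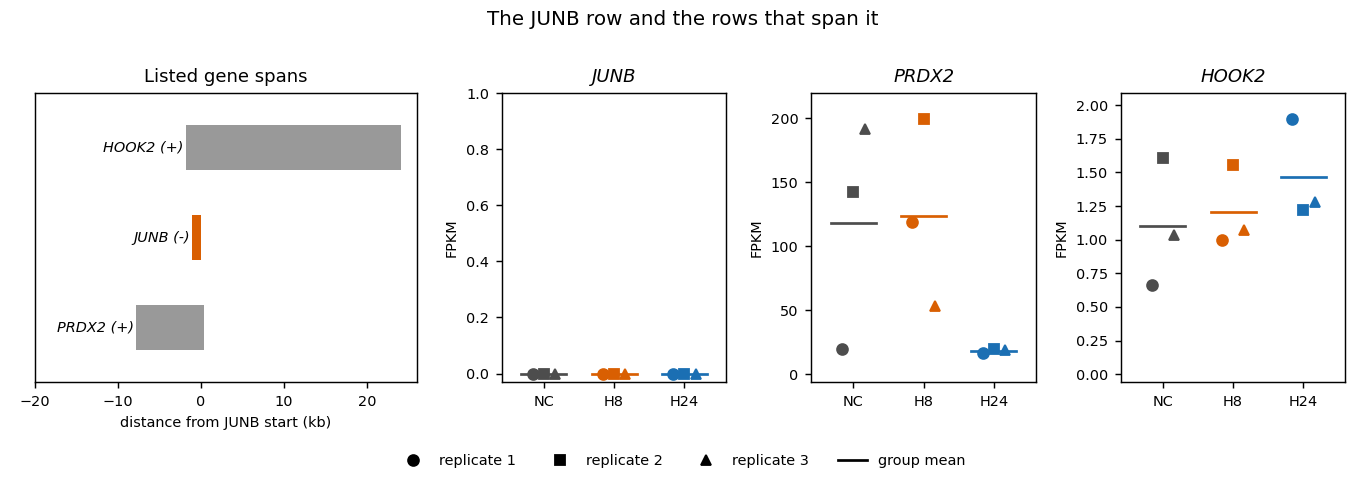
The left panel draws the listed spans of PRDX2, JUNB and HOOK2 with their strands, as distance in kb from the first base of JUNB, and the other panels plot FPKM of each row per library, with the group mean as a line. JUNB is at 0 in all 9 libraries, while PRDX2 runs from 16.5 to 199.6 FPKM and is below 20 FPKM in the 3 H24 libraries.

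The EGR family spanned a wide range of levels. EGR1, its most abundant member here (chr2:140441491-140471827, plus strand, in part overlapped by ETF1 on the other strand), stood at 156, 627 and 889 FPKM in NC, at 1041, 592 and 210.2 FPKM in H8, and at 543, 398 and 91.9 FPKM in H24. As with FOS, NC replicate 1, H8 replicate 3 and H24 replicate 3 were the low libraries, and the groups overlapped. EGR2, known for its role in myelinating Schwann cells and also induced in macrophages (chr14:66284581-66291306, minus strand), stood at 1.72, 3.57 and 3.97 FPKM in NC, at 4.55, 4.30 and 2.52 FPKM in H8, and at 11.14, 9.65 and 16 FPKM in H24. Every H24 library was above every NC and H8 library, and NC and H8 overlapped. EGR3 (chr14:6945936-6948381, minus strand, overlapped by an unnamed gene on the plus strand) stood at 0.993, 0.937 and 2.51 FPKM in NC, at 3.45, 7.91 and 1.77 FPKM in H8, and at 5.04, 5.09 and 1.4 FPKM in H24. It was the lowest of the members above 0, with 85 to 697 counts per library, and its groups overlapped. Because strand use in the counting is not given in the sources used here, reads of overlapping genes on opposite strands cannot be told apart for EGR1, EGR3 and IER3.

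ATF3 (chr9:130772262-130785599, minus strand) was the member with the largest fold difference in mean level between H8 and the other groups. It stood at 72.4, 20.3 and 105 FPKM in NC, at 866, 567 and 205 FPKM in H8, and at 67.8, 67.9 and 37.0 FPKM in H24. The lowest H8 library was above the highest library of NC and of H24, which overlapped each other. NR4A1 (chr5:17399324-17408510, plus strand) stood at 59.8, 185 and 341 FPKM in NC, at 613, 308 and 76.5 FPKM in H8, and at 98.4, 120.5 and 13.6 FPKM in H24. Its highest and lowest H24 libraries differed 8.87-fold, the widest H24 ratio among the members, and the 3 groups overlapped. IER3 (chr7:23265564-23266827, minus strand, overlapped by TUBB on the plus strand) stood at 8.02, 14.9 and 21.4 FPKM in NC, at 26.1, 36.2 and 22.3 FPKM in H8, and at 5.73, 11.4 and 6.0 FPKM in H24. All H8 libraries were above all others, and NC and H24 overlapped.

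**Figure D2:**
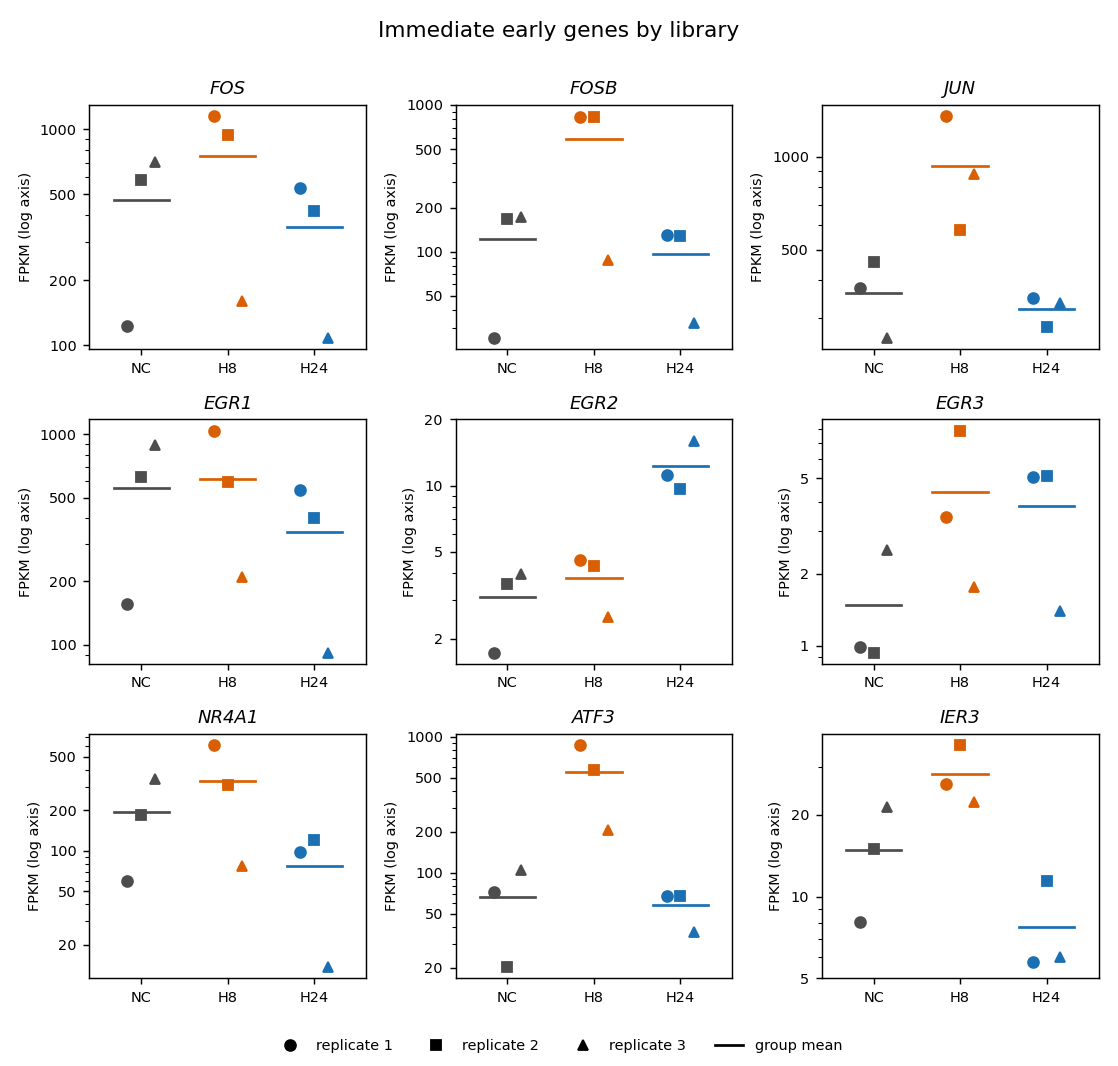
FPKM of the 9 members above 0 in each library on log axes, by group (NC, H8, H24), with symbols for replicates 1 to 3 and a line at the group mean. ATF3, JUN and IER3 have all 3 H8 libraries above every other library, EGR2 has all 3 H24 libraries above every other, and FOS, EGR1 and NR4A1 overlap between groups.

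After 8 weeks on the high-fat diet, ATF3, JUN, IER3, EGR3 and FOSB were higher than in NC, and no member was lower. A gene was called when its log2 fold change was beyond 1 in size with an unadjusted p under 0.05 in edgeR's quasi-likelihood test over all genes. By this rule 5 members of the 9 tested were up in H8/NC (4 of the 8 found by name), against 5.11% of the 14336 genes tested, and 0 were down, against 2.27%. The median log2 fold change of the 8 was 1.0, beside 0.01 over all genes, and all 8 were above 0, as 51.5% of all genes were. The 3 H8 libraries were all above the 3 NC libraries for ATF3, JUN and IER3, as for 6.91% of genes, and no member had all H8 libraries below all NC libraries, as 15.9% of genes did. With adjusted p-values the count was 0 of 8 in this test (0.014% of all genes were up and 0.014% down), 1 of 8 in DESeq2 (ATF3) and 1 of 8 in edgeR's likelihood ratio test.

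ATF3 had the largest change in H8/NC, with a log2 fold change of 3.21 (SE 0.72, adjusted p = 0.187, edgeR), an 8.27-fold ratio of mean FPKM. JUN rose by 1.48 (SE 0.34, adjusted p = 0.187), a 2.58-fold ratio. In DESeq2 the adjusted p was 2.12e-05 for ATF3 and 0.00176 for JUN, and both kept their call in all 18 alternative settings. Over those settings the adjusted p reached 0.428 for both genes. The exact permutation test gave its smallest possible p with 3 against 3 libraries, 0.1, for ATF3, JUN and IER3.

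IER3 had a log2 fold change of 1.09 (SE 0.39, adjusted p = 0.275, edgeR), EGR3 of 1.75 (SE 0.67, adjusted p = 0.296) and FOSB of 2.42 (SE 0.96, adjusted p = 0.309). These 3 calls depended on the setting, with FOSB called in 9 of 18 alternatives and EGR3 and IER3 in 13 each. FOSB lost its call without any 1 of NC replicates 1, 2 or 3 or H8 replicates 1 or 2, where its log2 fold change was 1.94, 2.75, 2.73, 2.13 and 1.99. EGR3 lost it without NC replicate 1, NC replicate 2 or H8 replicate 2, at 1.53, 1.53 and 0.90. IER3 lost it without the same libraries, at 0.78, 1.11 and 0.78. The count of the 8 named members that were up therefore ran from 1 to 4 as single libraries were left out, and was 1 without NC replicate 1, NC replicate 2 or H8 replicate 2. With the replicate number as a block it was 2, with FOSB (log2 fold change 2.34) and EGR3 (1.63) not called. FOSB was also not called in limma with any of the 3 pseudocounts (2.10 to 2.12), EGR3 (1.01) and IER3 (0.96) with a pseudocount of 1, and IER3 with library size scaling (0.92).

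FOS, EGR1, NR4A1 and EGR2 were not called in H8/NC. Their log2 fold changes were 0.83 (SE 0.81), 0.28 (SE 0.72), 0.91 (SE 0.80) and 0.44 (SE 0.40). The standard errors of the first 3 were among the largest of the members, and EGR1 was at -0.17 without NC replicate 1 and at -0.28 without H8 replicate 1.

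After 24 weeks on the diet, EGR2 was the only member called in H24/NC, with a log2 fold change of 1.96 (SE 0.39, adjusted p = 0.132, edgeR) and a 3.97-fold ratio of mean FPKM. This was 1 of 9 members up, against 9.95% of the 14828 genes tested, and 0 down, against 1.52%. DESeq2 also called EGR3 (log2 fold change 1.36, unadjusted), which made 2 up, and likewise called 0 down. The median over the 8 named members was -0.41, beside 0.01 over all genes, and 2 of the 8 were above 0, against 50.6% of genes. EGR2 had every H24 library above every NC library, as 12.8% of genes did, and no member had every H24 library below every NC library, as 7.8% did. Without H24 replicate 3 the median was 0.00366 and EGR2 stood at 1.72, with EGR3 called as well at 1.75. No member passed the adjusted threshold in the quasi-likelihood test, as no gene did, while EGR2 did in DESeq2 (adjusted p = 0.000153) and in the likelihood ratio test (adjusted p = 0.000695). EGR2 kept its call in all 18 alternatives, with adjusted p up to 0.465.

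The markers of other cells moved beside EGR2. All 10 macrophage markers were called up in H24/NC, with a median log2 fold change of 4.83, and so were 7 of 9 T cell markers. H24 replicate 3, which had the highest EGR2, also had the highest macrophage sum, 2451 FPKM. In H8 replicate 1 the macrophage sum was 229 FPKM, with EGR2 at 4.55 FPKM. In H24 replicate 2, which had the lowest EGR2 of the H24 libraries (9.65 FPKM), the macrophage sum was 233 FPKM. The T cell sum there was 20.6 FPKM, of which CD3E alone made up 15.8 FPKM. CD2, CD4, CD5 and CD8A were lowest in this library among the H24 libraries, and the other T cell markers were not. Of 8 nerve and Schwann cell markers 1 was called up (9.95% of all genes were). Their part in the level of EGR2 was not tested.

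The other members were not called in H24/NC. NR4A1 had a log2 fold change of -1.36 (SE 0.87), IER3 of -0.96 (SE 0.46), EGR1 of -0.73 (SE 0.78), FOS of -0.46 (SE 0.76) and FOSB of -0.37 (SE 0.77). ATF3 at -0.21 (SE 0.55) and JUN at -0.20 (SE 0.29) were the members nearest to 0. EGR3 was at 1.35 (SE 0.65) and was also called without NC replicate 3 (1.95). IER3 was called down without NC replicate 1 (-1.26) and without H24 replicate 2 (-1.38). FOSB stood at 0.049 without H24 replicate 3, ATF3 at 0.030 without the same library and at 0.29 without NC replicate 3, and JUN at 0.022 without NC replicate 2.

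**Figure D3:**
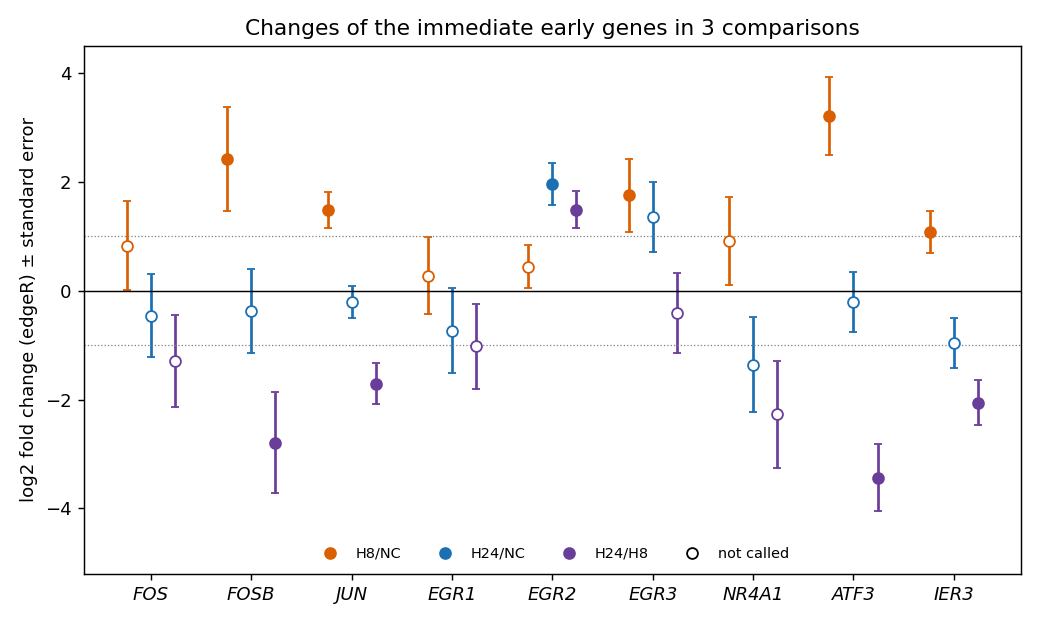
The log2 fold change of each member from edgeR, with its standard error as a bar, in H8/NC, H24/NC and H24/H8. Filled points were called (beyond the dotted lines at 1 or -1 with an unadjusted p under 0.05) and open points were not. ATF3, JUN, IER3, EGR3 and FOSB are called in H8/NC, EGR2 alone in H24/NC, and ATF3, IER3, JUN, FOSB and EGR2 in H24/H8.

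The direct comparison of both diet times tested whether their changes from NC differed. In H24/H8, ATF3, IER3, JUN and FOSB were lower and EGR2 was higher. By the same rule 4 of 9 members were down (3 of the 8 found by name), against 3.05% of the 14788 genes tested, and 1 was up, against 7.22%. The median log2 fold change of the 8 was -1.68, beside 0.04 over all genes, and 7 of the 8 were below 0, while 53% of all genes were above it. The 3 comparisons share libraries, so their values are not independent of each other. Markers of other cells moved in this comparison too. All 10 smooth muscle markers were below 0, with a median of -1.04 and 2 called down. Called up were 10 of 10 macrophage, 8 of 9 T cell and 5 of 9 adipocyte markers. The marker lists were not fitted without H24 replicate 3. Smooth muscle markers summed to 8383, 12209 and 1789 FPKM in H24 against 10463 to 13962 FPKM in H8. Macrophage markers summed to 380, 233 and 2451 FPKM against 40.2 to 229 FPKM. Every H24 library was above every H8 library for 3 of the 10 macrophage and 6 of the 9 T cell markers. The part of these markers in the members' changes was not tested.

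ATF3 fell by 3.43 on the log2 scale in H24/H8 (SE 0.61, adjusted p = 0.336, edgeR). IER3 fell by 2.06 (SE 0.41) and JUN fell by 1.71 (SE 0.37), both with the same adjusted p of 0.336. For these 3 genes every H24 library was below every H8 library, which held for 6.31% of all genes tested. EGR2 rose by 1.49 (SE 0.34, adjusted p = 0.336) and by 1.27 without H24 replicate 3, and every H24 library was above every H8 library, as for 15.5% of all genes. The exact permutation test gave 0.1 for each of these 4 genes. They kept their calls in all 18 alternatives.

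FOSB fell by 2.80 (SE 0.93, adjusted p = 0.341, edgeR), with overlapping groups. It lost its call in 1 of 18 alternatives, without H8 replicate 2 (log2 fold change -2.37). In the quasi-likelihood test 0 of 8 members passed the adjusted threshold (0.0135% of all genes did so upward and 0% downward), and 4 had an unadjusted p under 0.05. DESeq2 passed 4 of the 8, ATF3 (adjusted p = 1.46e-06), IER3 (0.00125), EGR2 (0.00816) and FOSB (0.0252), with JUN beside them (0.000386). The likelihood ratio test passed 3 of the 8.

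NR4A1, FOS, EGR1 and EGR3 were not called in H24/H8, at -2.27 (SE 0.98), -1.29 (SE 0.85), -1.02 (SE 0.79) and -0.41 (SE 0.73). NR4A1 was called in 6 of 18 alternatives, among them DESeq2 (-2.26) and without H8 replicate 3 (-2.75). FOS was called without H8 replicate 3 (-1.78). With the replicate number as a block, NR4A1 (-2.35), FOS (-1.14) and EGR1 (-1.08) were called as well, which made 6 of the 8 down. EGR3 stood at 0.44 without H8 replicate 2. The number of the 8 that were down ran from 2 without H8 replicate 2 to 5 without H8 replicate 3.

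The spread within groups separated the members into different kinds. The standard deviation of log2 CPM within groups was 1.59 for FOSB, 1.55 for NR4A1, 1.43 for FOS and 1.31 for EGR1. Of 11239 genes, 98.5%, 98.4%, 97.8% and 96.7% had a smaller one, and the median over all genes was 0.39. EGR3 (1.01) and ATF3 (1.0) followed, and IER3 (0.60), EGR2 (0.54) and JUN (0.41) were closest to the median gene. The members called with non-overlapping groups were thus ATF3 and the 3 with the smallest spread.

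The variable members were low in the same libraries. NC replicate 1 was the lowest NC library for 6 of the 9 members above 0, H8 replicate 3 the lowest H8 library for 8, and H24 replicate 3 the lowest H24 library for 6. NC replicate 3 was the highest NC library for 8. JUN was the only exception for H8 replicate 3 and for NC replicate 3. EGR3, ATF3 and JUN were the exceptions for NC replicate 1, and EGR2, IER3 and JUN for H24 replicate 3. FOS deviated from its group mean by -1.62 on the log2 CPM scale in NC replicate 1, by -1.88 in H8 replicate 3 and by -1.42 in H24 replicate 3.

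**Figure D4:**
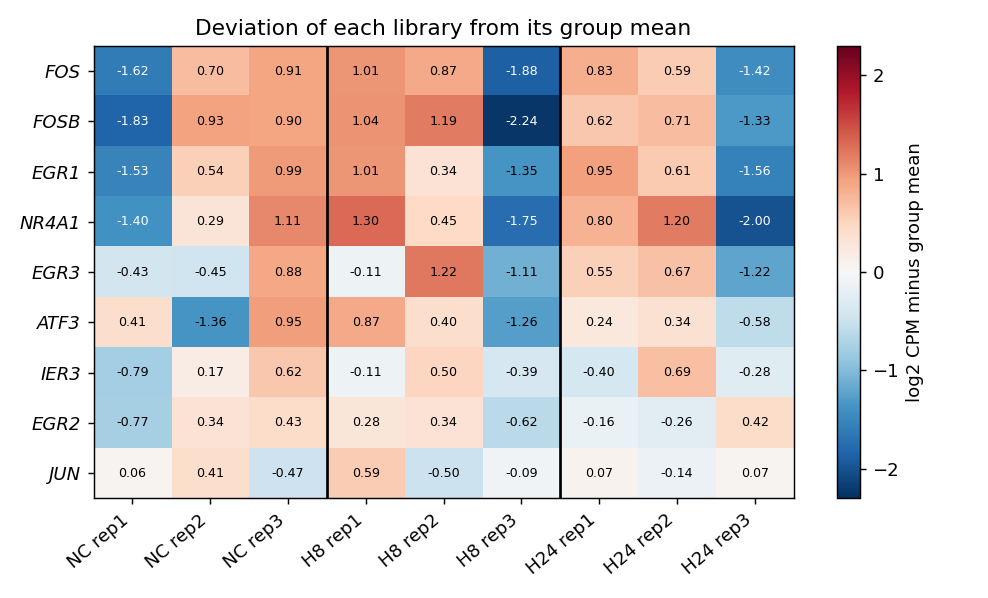
Deviation of each library's log2 CPM from the mean of its group for the 9 members above 0, with columns for the 9 libraries and lines between groups, red above and blue below the group mean. FOS, FOSB, EGR1 and NR4A1 are below their group mean together in NC replicate 1, H8 replicate 3 and H24 replicate 3, and JUN stays within 0.59 of its mean.

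Among FOS, FOSB, EGR1 and NR4A1, the 6 pairwise correlations of these deviations over the 9 libraries ran from 0.925 to 0.991. These 4 genes had the largest spread and were grouped after the values were seen, so their likeness is not a test. Correlations with these 4 ran from 0.745 to 0.798 for EGR3, 0.629 to 0.719 for IER3 and 0.442 to 0.583 for ATF3. Pairs with JUN ran from -0.536 to 0.0234 and pairs with EGR2 from -0.00578 to 0.655. These are descriptions over 9 libraries that share depth and composition. The members together took 0.214% to 0.789% of all counts in NC, 0.386% to 1.57% in H8 and 0.151% to 0.496% in H24, with the lowest share of each group in the same 3 libraries. Smooth muscle markers summed to 14245 FPKM in NC replicate 1 and 13962 FPKM in H8 replicate 3, the highest of their groups, and to 1789 FPKM in H24 replicate 3, the lowest. The part of smooth muscle content in the members' levels was not tested.

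Ratios of FPKM between members were also taken within each library. FOSB over FOS was 0.210, 0.287 and 0.243 in NC, 0.718, 0.881 and 0.548 in H8, and 0.244, 0.306 and 0.301 in H24. Every H8 ratio was above every other, including that of H8 replicate 3, the library with the least of either mRNA in its group. The means were 0.247 ± 0.0382, 0.716 ± 0.167 and 0.283 ± 0.0346 (SD, n = 3), and the exact permutation test, two-sided, gave p = 0.1 for H8 against NC and for H24 against H8, the smallest possible, and p = 0.2 for H24 against NC. Relative to FOS, the H8 and NC libraries did not overlap, while the levels of FOSB by itself did.

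EGR1 over FOS was 1.27, 1.07 and 1.26 in NC, 0.903, 0.627 and 1.3 in H8, and 1.02, 0.948 and 0.851 in H24, within 2.08-fold over all 9 libraries. Every H24 ratio was below every NC ratio (exact permutation p = 0.1), and H8 overlapped both. NR4A1 over EGR1 was 0.384, 0.295 and 0.383 in NC, 0.589, 0.520 and 0.364 in H8, and 0.181, 0.302 and 0.148 in H24, with every H24 ratio below every H8 ratio (exact permutation p = 0.1). EGR2 over EGR1 was 0.0110, 0.00570 and 0.00446 in NC, 0.00437, 0.00726 and 0.0120 in H8, and 0.0205, 0.0242 and 0.174 in H24. H24 replicate 3 had the highest ratio, with EGR2 at its highest and EGR1 at its lowest level of all 9 libraries. The other 3 of the 7 ratios computed, all chosen after the values were seen, were ATF3 over FOS, JUN over FOS and EGR3 over EGR1. ATF3 over FOS was 0.599 to 1.27 in H8, 0.0346 to 0.591 in NC and 0.127 to 0.342 in H24, with H8 above both (exact permutation p = 0.1). JUN over FOS spanned 14.9-fold over the libraries with all groups overlapping (exact permutation p = 0.6, 0.9 and 0.7 for H8 against NC, H24 against NC and H24 against H8). EGR3 over EGR1 was 0.00150 to 0.00637 in NC, 0.00332 to 0.0134 in H8 and 0.00929 to 0.0152 in H24, with every H24 ratio above every NC ratio (exact permutation p = 0.1).

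**Figure D5:**
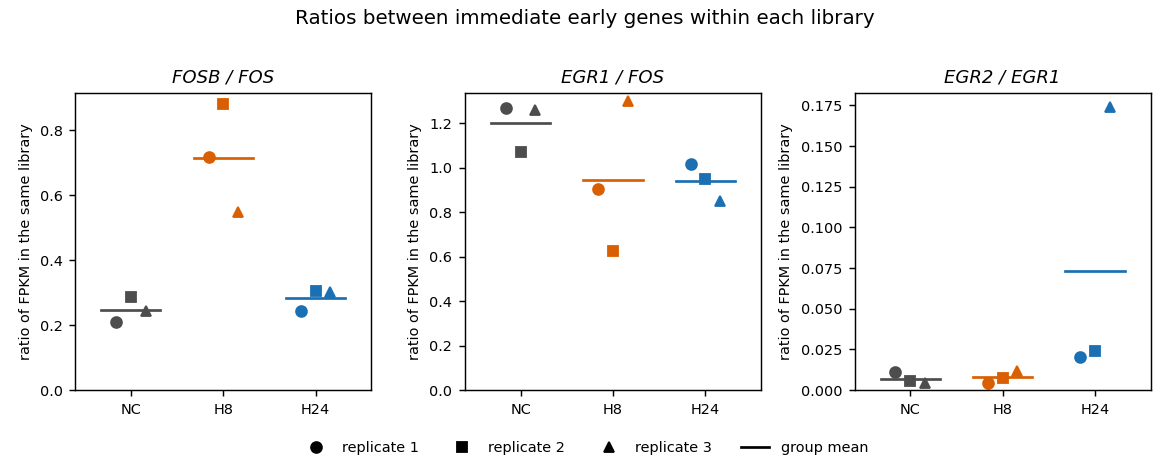
Ratio of FPKM between members in the same library, for FOSB over FOS, EGR1 over FOS and EGR2 over EGR1, by group, with symbols for replicates and a line at the group mean. FOSB over FOS is between 0.548 and 0.881 in H8 and at most 0.306 elsewhere, and EGR2 over EGR1 is highest in H24 replicate 3 at 0.174.

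Other transcription factors of the immediate early class followed the members in part. Of 20 tested, 5 were up in H8/NC (5.11% of all genes were) and 0 down. Their median log2 fold change was 0.83, and 18 of the 20 were above 0. The 4 with the smallest p were IER5, a stress-induced regulator (2.56, SE 0.54), KLF4, a zinc finger factor known in smooth muscle phenotype change and matched by its identifier (1.54, SE 0.44), NR4A3, a relative of NR4A1 (2.19, SE 0.68), and MYC, a growth regulator (2.38, SE 0.74). In H24/NC 0 of 20 were called in either direction by edgeR (9.95% of all genes were up and 1.52% down). None had an unadjusted p under 0.05, and the median was -0.27. In H24/H8 9 were down (3.05% of all genes were) and all 20 were below 0. IER5 was at -2.29, NFIL3 at -1.60, MAFK at -1.26 and CEBPB at -1.04 (-0.93 and not called without H24 replicate 3). The 9 became 3 without H8 replicate 2, 15 without H8 replicate 3 and 5 without H24 replicate 3, and the 5 in H8/NC became 10 without H8 replicate 3.

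The kinases and factors upstream of the members were called about as often as all genes. None was down and, of 23, which include the serum response factor SRF, its ELK partners and the MAP kinases, 1 was up in H8/NC (5.11% of all genes were) and 2 in H24/NC (9.95% of all genes), with medians of 0.07 and -0.01. RPS6KA1, a kinase activated by ERK, was called in all 3 comparisons, at 1.78 in H8/NC, 4.05 in H24/NC and 2.22 in H24/H8. Without H24 replicate 3 it stood at 2.85 in H24/NC and 1.06 in H24/H8. Its call in H24/H8 was lost without H24 replicate 3 and without H8 replicate 3, where 0 of 23 were up. SRF itself was at 0.13 (SE 0.13) in H8/NC and -0.68 (SE 0.38) in H24/NC.

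Feedback inhibitors, which include phosphatases, mRNA-decay factors and other genes that shut the response off, had 10 of 23 up and 0 down in H8/NC. Over all genes 5.11% were up, and the median of the list was 1.04. Among those up were TOB1 (1.03, SE 0.21), DUSP8 (1.52, SE 0.36), ERRFI1, an inhibitor of the EGF receptor (2.21, SE 0.52), and DUSP2 (3.29, SE 0.81). DUSP2 was low, at 0.046, 0.057 and 0.103 FPKM in NC and 0.146, 1.11 and 0.522 FPKM in H8. The 10 became 6 without H8 replicate 2. In H24/NC 3 of 23 were up, near the share of all genes (9.95%). They were DUSP2 (2.82), TNFAIP3, a brake on NF-kB (1.95), and DUSP10 (1.57). Without H24 replicate 3, 1 was up, and TNFAIP3 stood at 0.98 and DUSP10 at 0.76. In H24/H8 8 were down (3.05% of all genes were), among them TRIB1 (-3.43) and ERRFI1 (-2.33). The count ran from 4 without H8 replicate 2 to 11 without H8 replicate 3. It was 5 without H24 replicate 3. NAB2, a corepressor of EGR proteins, was at 0.04 (SE 0.44) in H8/NC and -0.16 (SE 0.64) in H24/NC.

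Induced target genes are those that immediate early factors are known to switch on. In H8/NC 11 of 17 were up (5.11% of all genes were) and 0 down, with a median of 1.83, and in H24/NC 10 of 18 were up (9.95% of all genes) and 0 down, with a median of 1.47. CCN2, a matrix growth factor (2.10, SE 0.26, adjusted p = 0.0652), HBEGF, a growth factor for smooth muscle (2.75, SE 0.41, adjusted p = 0.0932), MMP9, a gelatinase (2.68, SE 0.41, adjusted p = 0.0937), and VEGFA (1.69, SE 0.31) led in H8/NC by edgeR. In H24/NC HBEGF (2.77, SE 0.33, adjusted p = 0.126), SPP1 (5.43, SE 1.04), MMP9 (9.0, SE 1.79) and PLAUR (1.89, SE 0.39) did so. H24 replicate 3 carried much of the last 3. MMP9 stood at 13.05 FPKM and 14.7 FPKM in H24 replicates 1 and 2 against 437 FPKM in replicate 3, and SPP1 at 181, 56.8 and 861 FPKM. Without that library the log2 fold change was 5.51 for MMP9 (SE 0.36, adjusted p = 0.0046, edgeR), 3.78 for SPP1 (SE 0.46, adjusted p = 0.00942), 1.46 for PLAUR (SE 0.29) and 2.93 for HBEGF (SE 0.32, adjusted p = 0.00653), and 9 of the list were up. Macrophages express SPP1, MMP9 and PLAUR, and of the 10 macrophage markers 10 were called up in H24/NC and 7 in H8/NC, there with a median of 1.89, a sum in H8 replicate 2 (40.2 FPKM) inside the NC range and CSF1R, CD163 and MRC1 not called. In H24/H8 the list was split, with CCN1 (-2.23) and F3 (-1.33) down and MMP9 (6.26) and MMP3 (4.09) up among 3 in each direction. MMP3 was low, at 0.009, 0.037 and 0.028 FPKM in H8 and 0.826, 0.057 and 0.655 FPKM in H24. Without H24 replicate 3, MMP9 stood at 2.83 in H24/H8. Whether the members acted on these genes was not tested.

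Heat shock genes, which encode chaperones induced by unfolded protein, were also higher in H8. Of 11 tested 6 were up in H8/NC (5.11% of all genes were) and all 11 were above 0, with a median of 1.21. DNAJB1 (2.90, SE 0.43, adjusted p = 0.0932, edgeR), HSPA8 (2.15, SE 0.42) and DNAJA1 (2.28, SE 0.56) had the smallest p, and HSPA5, of the endoplasmic reticulum, was at 0.80 (SE 0.20) and not called. Their summed level was 636 to 789 FPKM in NC, 1220 to 2404 FPKM in H8 and 612 to 773 FPKM in H24, so all H8 libraries were above all others. In H24/H8 6 were down (3.05% of all genes were), with HSPH1 at -2.86 and DNAJB1 at -2.66. This count was 6 with any single library left out. Fibroblast markers were also higher in H8, 4740 to 7767 FPKM against 3012 to 3855 FPKM in NC, with 5 of 10 called up. Adipocyte markers, of the fat around the vessel, had 4 of 8 down in H8/NC (2.27% of all genes were). The part of these in the members' levels was not tested.

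Genes were ranked by how alike their profile over the 9 libraries was to the mean profile of the 8 members found by name. That mean left out JUN. The most alike were CEBPB, CSRNP1, SLC25A25, ZFP36 and DUSP1, with Pearson correlations of 0.945, 0.943, 0.939, 0.935 and 0.934 of log2 CPM over 9741 named genes. METTL16 and BAG3 (both 0.904), RASSF1 (0.899), MAFF (0.892) and SPRY2 (0.890) completed the 10. ZFP36, an mRNA-decay factor, stood at 95.5, 276 and 461 FPKM in NC, at 512, 489.8 and 131 FPKM in H8, and at 323, 275 and 128 FPKM in H24. It was low in the same 3 libraries as FOS. CSRNP1, a nuclear protein of the immediate early class, stood at 2.32, 11.3 and 23.8 FPKM in NC, at 35.2, 68.7 and 6.56 FPKM in H8, and at 11.97, 11.3 and 6.09 FPKM in H24. CEBPB, CSRNP1, ZFP36, DUSP1, BAG3, MAFF and SPRY2 also stand on the lists above. By rank correlation 3 of the 10 were shared, and with single libraries left out 3 to 6 were, the fewest without H8 replicate 1. PRDX2, which spans JUNB, had a correlation of 0.695 and came 306th.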

How the data were processed

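RNA-seq was done on 9 aorta libraries (NC, H8, H24, n = 3 each, grouped by their labels). The authors made paired-end poly(A) libraries, mapped them to Sscrofa11.1 (HISAT 2.0), and deposited FPKM values (StringTie 1.3.0) with an estimated count per gene. How the counts were derived, the annotation release and strand use are not given in the sources used here. The submitters' notes also list Bowtie 0.12.2 and mm8 with no role, and the extraction protocol mentions adipose, while the tissue labels give the aorta.

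Estimated counts were tested with edgeR 4.0.16 (R 4.3.3): TMM normalization, genes whose FPKM averaged 0.1 or more in the pair of groups, quasi-likelihood test, two-sided. A call needed a log2 fold change above 1 or below -1 with unadjusted p under 0.05, as the methods set it, and also by Benjamini-Hochberg adjusted p over all tested genes. The method was tested on simulated data. Exact permutation tests were run over 3 against 3 libraries. Separate pigs are stated for NC and H24 only, so p-values measure the spread between samples, which in H8 may be technical.

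Alternatives were DESeq2 1.42.0, limma 3.58.1 on log2(FPKM + pseudocount of 0.01, 0.1 or 1), other scalings and filters, 1 fit of all libraries, a replicate block, summed rows of 1 name and each library left out. The likelihood ratio test, JUN by identifier and the lists and their named genes without single libraries were added after the data were examined. Members and gene lists were chosen with earlier results of these data known. Genes named from a list are the 4 with the smallest p per comparison, SRF, NAB2, PRDX2 and 3 macrophage markers excepted, which were named after values were seen. Where fewer than 4 passed the test, those called are named. Of the table's genes, 5119 have no name and 2457 are at 0 throughout.

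Of 22 other immediate early factors 21 matched, of 22 target genes 20, of 14 heat shock genes 11, and all inhibitors and upstream genes. Endothelial, B cell, neutrophil and mast cell, erythroid and skeletal muscle markers served to check the tissue: their summed FPKM ranged over 85.5 to 218, 2.60 to 23.1, 0.999 to 69.3, 19.8 to 254 and 0.541 to 2.73, and MYL1 was at 0. No sequences are printed.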

Additional observations from a re-analysis of the deposited data

Results flagged for a closer look

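For 5 members the change from NC differed between both diet times, by the direct comparison H24/H8 in edgeR with an unadjusted p under 0.05, none of which passed adjustment over all genes. ATF3 differed by -3.43 on the log2 scale (adjusted p = 0.336), IER3 by -2.06 (adjusted p = 0.336), JUN by -1.71 (adjusted p = 0.336), FOSB by -2.80 (adjusted p = 0.341) and EGR2 by 1.49 (adjusted p = 0.336). For JUN and IER3 all 3 H8 libraries lay above the NC mean and all 3 H24 libraries below it. Groups of 3 are too small for a test of single outlying libraries.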

How the results depend on the processing

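Of 496 alternative values for single members and for the list of most alike genes, 441 kept their direction and their side of the threshold, 20 lost a call, 14 gained one, 11 changed sign and 10, all of the alike list, moved. No change of sign touched a called value. ATF3 in H24/NC stood at 0.00687 with the replicate block and at 0.0455, 0.0389 and 0.0462 in limma with pseudocounts of 0.1, 1 and 0.01. With 1 library left out, the log2 fold change in H24/NC ran from -0.63 to 0.29 for ATF3, -0.41 to 0.022 for JUN and -0.85 to 0.049 for FOSB, that of EGR1 in H8/NC from -0.28 to 0.77, and that of EGR3 in H24/H8 from -0.81 to 0.44.

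The named members up in H24/NC were 2 in DESeq2. Those up in H8/NC were 2 with the replicate block and 1 in limma with a pseudocount of 1. Those down in H24/H8 were 6 with the replicate block. Members past the adjusted threshold were 1, 1 and 4 in DESeq2 and 1, 1 and 3 in the likelihood ratio test (H24/NC, H8/NC, H24/H8). The cause was not tested. Deviations of same-numbered libraries correlated between -0.0849 and 0.107. With groups of 3 this cannot decide whether the replicate numbers pair the samples.

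With single libraries left out, the median ran from -0.883 to 0.00366 in H24/NC, 0.63 to 1.5 in H8/NC and -2.01 to -1.24 in H24/H8. The numbers up ran from 1 to 2, 1 to 4 and 1 to 1, those down from 0 to 1, 0 to 0 and 2 to 5, and those past the adjusted threshold stayed at 0.

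Scaling by library size only moved the median of all genes to -0.133 in H8/NC and 0.238 in H24/H8, and calls over all genes to 576 up and 459 down (733 and 326 in the main fit) and to 1447 and 290 (1068 and 451). IER3 in H8/NC then stood at 0.92 and was not called, and limma with 0.1 gave 454 and 505 there. Over all settings H24/NC had 714 to 1795 genes up, 137 to 456 down and 0 to 982 adjusted, H8/NC 202 to 871, 141 to 529 and 0 to 616, and H24/H8 517 to 1447, 177 to 684 and 0 to 650. Depth did not limit the 9 members above 0, each with at least 85 counts in every library.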
